A study of Caenorhabditis elegans with 12 samples.

Results

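The genes col-176, D1086.3, cdh-7, F57H12.6, F44E2.4, gly-8 and Y48E1B.8 were examined in mid L4 larvae of Caenorhabditis elegans. They were selected on their read counts, for being higher in one let-7 mutant than in its control and lower in the other. They were found by their exact names in both count tables, 7 of 46711 entries that the tables share, and genes of the precuticle matrix with the same behaviour were left out of the choice. All 7 had enough counts to be tested in both contrasts, as had 11888 genes in all. The choice used the counts of all 12 libraries, so the differences between mutants and controls below describe the 7 genes and are given without a test. Where a call of one of the 7 in the fit across all genes is said to hold or to be lost, this describes its dependence on single libraries or settings. Such a call does not support the difference, as the same libraries chose the gene.

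The study sequenced RNA from whole animals grown at 20 °C and harvested 45 h after feeding, with 3 libraries, lettered A to C, in each of 4 strains. DG3913 carries lin-41(tn1541), in which lin-41 is tagged, and served as the control for U13A. VT3878 has the genotype lin-41(tn1541ma480);let-7(ma432) and is labelled U13A, with lin-41 downstream excluded, so its genotype differs from that of DG3913 at lin-41 as well as at let-7. VT1367 carries maIs105, an integrated col-19::gfp reporter, and was the control for U18A, and VT3797 carries maIs105 with let-7(ma435). Thus both strains of the U13A contrast share the tagged lin-41, both of the U18A contrast share maIs105, and no strain without one of these was sequenced among the samples used here. U13A and U18A count positions from the 5′ end of mature let-7. The counts carry no allele and do not check these substitutions.

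The microRNA let-7 belongs to the heterochronic genes, which set the order of stage-specific cell fates, and acts late in larval life by repressing targets such as lin-41. Each larval stage ends in a moult, for which the epidermis makes a temporary precuticle and then a new collagen cuticle, and many genes of this apical matrix are transcribed in a pulse once per stage. Among the 7 genes, col-176 belongs to the cuticle collagens, cdh-7 to the cadherins, which are adhesion proteins with extracellular repeats, and gly-8 to the GLY family of polypeptide N-acetylgalactosaminyltransferases, which start mucin-type O-glycans in the Golgi. The other genes carry sequence names only, and no function is assigned to them here.

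The libraries held 16659340 to 21414080 counts each in the U13A contrast and 6107652 to 9607239 in the U18A contrast. B0285.12, R144.15 and ZC155.8 took 65.6% to 76.8% of the counts in the first contrast and 0.527% to 1.01% in the second, so CPM, counts divided by the library total and multiplied by 1000000, scaled by TMM within a table, are compared within a table unless stated. DG3913 C stood apart, with 8.85% of its counts in protein-coding genes against 16.6% to 18.8% in the other U13A libraries and a TMM factor of 0.577, the single one below 1 in that table. VT3797 C had a TMM factor of 1.12 against 0.953 to 0.991 in the other U18A libraries. Each of the 4 epidermal markers and of the 3 markers each of body wall muscle, intestine, germ line and neurons was detected in all libraries, while 1 of 3 pharyngeal markers had no count in VT3878 B and VT3797 A. Summed levels of a list overlapped between mutant and control in each table, except for epidermis in the U18A table, given with the VT1367 libraries, and for 2 others. Muscle markers summed to 727.5 to 1115 CPM in DG3913 and 1140 to 1167 in VT3878, and neuronal markers to 48.5 to 57.2 in VT1367 and 57.3 to 62.9 in VT3797. The part of these differences in the results was not tested.

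The 7 genes lie on chromosomes II, III, IV, V and X of the WBcel235 assembly, all are annotated as protein coding, and each has 1 annotated transcript. They share no common size. F44E2.4 and cdh-7 encode 1283 and 1364 codons, whereas D1086.3 and F57H12.6 encode 194 and 205. The genes of a chromosome pair are not neighbours: cdh-7 (14843229 to 14850905) and Y48E1B.8 (13585705 to 13589038) are both on the plus strand of chromosome II, and gly-8 (11625242 to 11628235, plus strand) and F44E2.4 (8832480 to 8838424, minus strand) are on chromosome III. gly-8 overlaps Y66A7A.7, and Y48E1B.8 overlaps clec-145, each on the opposite strand. These overlaps are of whole gene spans, and shared exon bases were not examined. The use of strand in counting is not given in the sources used here, so reads from any shared exon bases may not be told apart.

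All 7 genes were higher in the U13A mutant VT3878 than in DG3913, by log2 fold changes of 0.83 to 2.72, and all 7 were lower in the U18A mutant VT3797 than in VT1367, by -0.74 to -2.37. In whole animals, fewer cells of a type and less RNA per cell cannot be told apart. The order of size differed between the contrasts. Among the 7, cdh-7 and D1086.3 differed most in the U13A contrast, whereas col-176 and cdh-7 differed most in the U18A contrast. Sizes were similar in both contrasts for F44E2.4 (0.83 and -1.06) and gly-8 (0.91 and -1.01), the genes with the smallest U13A changes. They were also similar for col-176 (2.27 and -2.37) and F57H12.6 (1.70 and -1.46). In the fit across all genes, 7 of 7 passed the adjusted p threshold as higher in the U13A mutant, where 0.731% of tested genes did. In the U18A mutant 6 of 7 passed as lower, where 5.88% did, and Y48E1B.8 did not pass. Every mutant library lay above every control for 7 of 7 genes in the U13A table, where 9.8% of tested genes did so, and below every control for 7 of 7 in the U18A table, where 14.8% did. These counts follow from how the genes were chosen, and nothing is read from them.

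**Figure D1:**
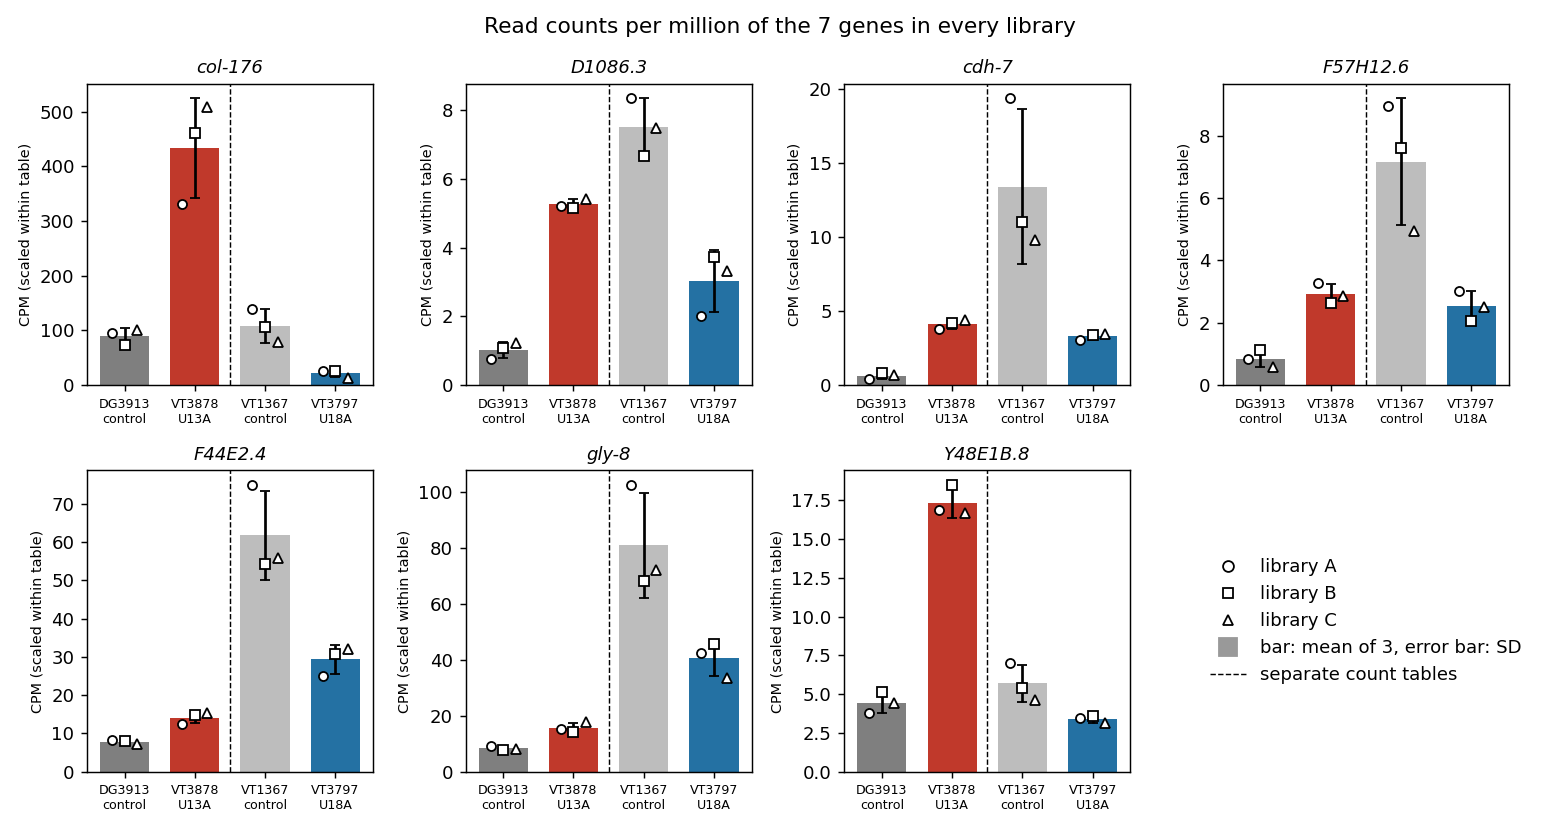
CPM of the 7 genes in every library, scaled within each count table. Bars are means of 3 libraries with SD, points are libraries A, B and C, and the dashed line separates the tables. In each panel the U13A mutant libraries lie above the DG3913 libraries and the U18A mutant libraries below the VT1367 libraries.

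col-176 (WBGene00000749, chromosome X, 10077597 to 10078728, plus strand) had the highest level per kilobase of exon of the 7 in DG3913, VT3878 and VT1367, at 83.2, 400.0 and 99.7 CPM per kilobase. In VT3797 it was at 19.7 CPM per kilobase, below gly-8 at 31.2. It had 95.4, 73.9 and 101 CPM in DG3913 A to C and 331, 461 and 508 in VT3878 A to C. In the U18A table it had 139, 105.5 and 78.7 CPM in VT1367 A to C and 25.6, 25.2 and 13.2 in VT3797 A to C. Neither pair of groups overlapped: the lowest U13A mutant library was 3.28-fold above the highest control, and the lowest VT1367 library was 3.08-fold above the highest VT3797 library. The log2 fold changes were 2.27 (SE 0.20) and -2.37 (SE 0.34). Its U18A call was lost without VT1367 B (log2 fold change -2.38), without VT3797 C (-2.09) and when genes were not filtered by count (-2.36), while the change kept its size.

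cdh-7 (WBGene00000399) had few counts in DG3913, with 8, 21 and 7 counts in libraries A to C against 86, 73 and 84 in VT3878. These correspond to 0.378, 0.806 and 0.661 CPM in the control and 3.80, 4.18 and 4.43 in the mutant. The mutant values were tight, with a coefficient of variation of 7.67%, while that of the control was 35.4%. In VT1367 A to C it had 19.4, 11.02 and 9.80 CPM and in VT3797 A to C 3.03, 3.402 and 3.44. Again the spread lay in the control, where library A was 1.98-fold above library C, and the 3 mutant libraries were within 1.13-fold of each other. Fitted log2 fold changes were 2.72 (SE 0.26), which became 3.09 without DG3913 B, and -1.997 (SE 0.27), which became -1.65 without VT1367 A.

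D1086.3 (WBGene00008390, chromosome V, 14092792 to 14093986, plus strand) had 0.755, 1.07 and 1.23 CPM in DG3913 A to C, from 16, 28 and 13 counts, and 5.21, 5.16 and 5.43 in VT3878. The U13A mutant libraries were within 1.05-fold of each other, the narrowest range of the 7 genes in any group, and the lowest of them was 4.2-fold above the highest control. In the U18A table it had 8.36, 6.67 and 7.48 CPM in VT1367 A to C and 2.02, 3.74 and 3.33 in VT3797 A to C. Here the wider spread was in the mutant, with a coefficient of variation of 29.7% against 11.2% in the control. Its log2 fold changes were 2.40 (SE 0.21) and -1.30 (SE 0.23).

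F57H12.6 (WBGene00019021, chromosome IV, 7975454 to 7976310, minus strand) had the fewest counts of the 7, from 6 to 74 per library. It had 0.849, 1.11 and 0.566 CPM in DG3913 A to C and 3.27, 2.64 and 2.85 in VT3878. It had 8.96, 7.60 and 4.95 CPM in VT1367 A to C and 3.03, 2.04 and 2.50 in VT3797. The groups did not overlap in either table, but in the U18A table the lowest control was only 1.63-fold above the highest mutant, less than the 1.81-fold range among the controls themselves. Fold changes on the log2 scale were 1.70 (SE 0.25) and -1.46 (SE 0.26), and the U13A call was lost without VT3878 A (1.61).

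F44E2.4 (WBGene00018418) and gly-8 (WBGene00001633) had similar fold changes. F44E2.4 had 8.21, 8.13 and 7.36 CPM in DG3913 A to C and 12.4, 14.9 and 15.2 in VT3878. It had 74.9, 54.3 and 55.8 CPM in VT1367 A to C and 25.1, 30.8 and 32.2 in VT3797. The DG3913 libraries were within 1.12-fold of each other, so the separation of 1.51-fold between the groups exceeded their range even though the fold change was small. The log2 fold changes were 0.83 (SE 0.13), a call lost without VT3878 B (0.80), and -1.06 (SE 0.13).

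gly-8 had 9.11, 7.90 and 8.11 CPM in DG3913 A to C and 15.4, 14.2 and 17.8 in VT3878. It had 103, 68.1 and 72.0 CPM in VT1367 A to C and 42.3, 45.8 and 33.5 in VT3797. As for F44E2.4, VT1367 A was the high library, and VT1367 B was 1.49-fold above the highest VT3797 library. The log2 fold changes were 0.91 (SE 0.14) and -1.01 (SE 0.17). Both calls held in each of the 6 fits of their contrast that left out 1 library, fits that reuse the libraries by which the gene was chosen. The overlapping gene Y66A7A.7 had log2 fold changes of -0.22 and -0.08, neither past the threshold (edgeR adjusted p 0.822 and 0.884).

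Y48E1B.8 (WBGene00013007) was the least even of the 7. It had 3.78, 5.14 and 4.44 CPM in DG3913 A to C and 16.9, 18.5 and 16.7 in VT3878, so that the mutant libraries lay at least 3.25-fold above each control. It had 7.02, 5.43 and 4.64 CPM in VT1367 A to C and 3.46, 3.57 and 3.12 in VT3797, where the groups were only 1.30-fold apart. Fold changes were, in log2 units, 1.96 (SE 0.15) and -0.74 (SE 0.23). Of the 6 U18A fits with 1 library left out, the gene passed in 1, without VT1367 C (-0.90). It also passed with all 12 libraries in 1 fit (-0.75) and with the replicate letter as a block (-0.73). With VT1367 A left out it was -0.57. The overlapping clec-145 had log2 fold changes of -0.45 and -0.54, neither past the threshold (edgeR adjusted p 0.645 and 0.485).

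**Figure D2:**
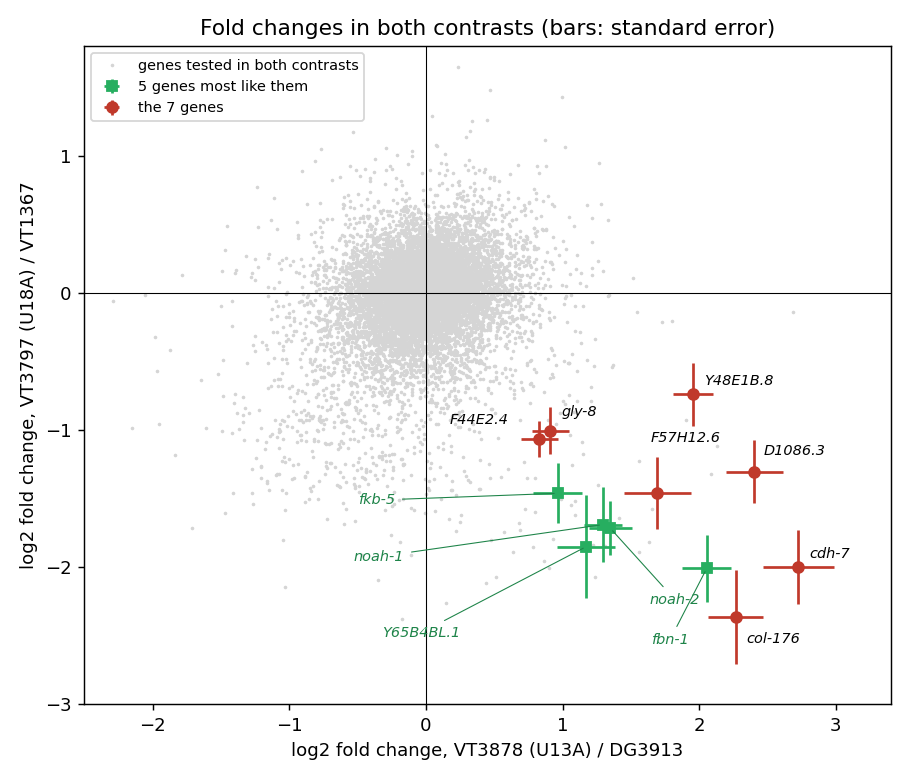
Log2 fold change of each gene in the U13A contrast (horizontal) and the U18A contrast (vertical), with standard errors for the 7 genes (red) and the 5 genes most like them (green) over all genes tested in both contrasts (grey; points beyond the axes are not drawn). The 7 genes occupy the lower right, from 0.83 and -1.06 for F44E2.4 to 2.72 and -1.997 for cdh-7.

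Leaving out either library that stood apart did not change the direction of any of the 7 genes. Without DG3913 C their U13A log2 fold changes ran from 0.79 for F44E2.4 to 2.74 for cdh-7, and all 7 still passed. Without VT3797 C the U18A changes ran from -0.68 for Y48E1B.8 to -2.09 for col-176, and 5 of 7 passed. Whether these libraries differ in stage, in RNA quality or otherwise was not tested.

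Of the 11888 genes tested in both contrasts, 29, or 0.244%, passed the threshold as higher with U13A and lower with U18A, and 3, or 0.0252%, passed in the reverse directions. The 29 hold 6 of the 7 genes, 5 genes of the precuticle list and 18 others, so the 7 are not all the genes with this behaviour. Ordered by the U13A minus the U18A log2 fold change, cdh-7 (4.72) and col-176 (4.64) came first among the 29, and fbn-1 followed with 4.07. Of the 18 others, cdh-10 (3.45) and dpy-9 (3.31) were among those above F57H12.6 (3.15). gly-8 and F44E2.4, with 1.92 and 1.895, lay in the lower part of that list, whose smallest value was 1.22 for R08E5.3. A wider count, of genes whose groups did not overlap in either table in these directions, gave 191 genes, or 1.61%, and included all 7.

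The genes most like the 7 were found by the root mean square difference, over 12 libraries, between each gene's log2 CPM relative to its control mean and the average of the 7. Among 5246 other genes with at least 5 CPM on average in each table, the median difference was 1.15. The smallest were 0.31 for noah-2, 0.32 for noah-1, 0.33 for fbn-1, 0.44 for fkb-5 and 0.51 for Y65B4BL.1. The 5 CPM limit was not applied to the 7 genes, of which cdh-7 and F57H12.6 averaged less in both U13A groups. It left out genes of low count such as cdh-10, at 1.09 and 3.37 CPM in DG3913 and VT3878. noah-1, noah-2 and fbn-1 encode zona pellucida domain or fibrillin-like proteins of the apical matrix, and fkb-5 encodes a member of the FKBP-type peptidyl-prolyl isomerases. The 7 genes themselves lay 0.25 (F57H12.6) to 0.60 (col-176) from their own average, so noah-2 followed the average more closely than 6 of the 7 did. As these profiles contain the group differences that chose the 7, the likeness is a description.

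fkb-5, which is on no list used here, had 6.70, 5.87 and 4.06 CPM in DG3913 A to C and 10.8, 9.46 and 13.1 in VT3878. It had 84.8, 61.0 and 51.9 CPM in VT1367 A to C and 23.0, 29.9 and 19.6 in VT3797. The groups did not overlap in either table. It rose by 0.97 (SE 0.18, edgeR adjusted p 0.0171) and changed by -1.46 (SE 0.22, edgeR adjusted p 0.00594) on the log2 scale. The first call was lost without any 1 of the VT3878 libraries (edgeR adjusted p 0.0656 to 0.107) and the second without VT3797 A (edgeR adjusted p 0.0501) or VT3797 C (edgeR adjusted p 0.0952).

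Y65B4BL.1 had 3.397, 2.61 and 3.30 CPM in DG3913 A to C and 5.04, 8.54 and 7.33 in VT3878. It had 67.5, 40.7 and 36.6 CPM in VT1367 A to C and 19.3, 10.2 and 10.5 in VT3797, so VT1367 A was again the highest control. Its log2 fold changes were 1.18 (SE 0.21, edgeR adjusted p 0.0152) and -1.85 (SE 0.37, edgeR adjusted p 0.0469). The U13A call was lost without DG3913 A (edgeR adjusted p 0.0616) or VT3878 B (edgeR adjusted p 0.118), and the U18A call without VT1367 B (edgeR adjusted p 0.102) or VT3797 C (edgeR adjusted p 0.242). The U13A call was also lost with all 12 libraries in 1 fit (edgeR adjusted p 0.119) and the U18A call without the count filter (edgeR adjusted p 0.128).

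The families of the named members were read from the same fits, with the members left out. Among 11 other cadherin genes, 10 were tested in each contrast. cdh-10 rose in the U13A mutant, from 1.09 ± 0.296 CPM in the control to 3.37 ± 0.694 in the mutant (SD, n = 3 each). The change was 1.56 in log2 units (SE 0.25, edgeR adjusted p 0.00674). In the U18A mutant it fell from 16.5 ± 6.73 CPM to a level of 4.50 ± 1.01 (SD, n = 3 each), by 1.89 on the log2 scale (SE 0.32, edgeR adjusted p 0.00532), a call lost without VT3797 C (edgeR adjusted p 0.0952). cdh-10 was thus the single other cadherin past the threshold in both contrasts, in the same directions as cdh-7.

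No other cadherin passed as higher in the U13A mutant, so 1 of 10 did, where 0.731% of all tested genes did. With cdh-10 included, 3 of 10 passed as lower in the U18A mutant, where 5.88% of all tested genes did. cdh-12 and cdh-1 fell in the U18A mutant, with log2 fold changes of -1.62 (edgeR adjusted p 0.0231) and -0.59 (edgeR adjusted p 0.0103). In the U13A mutant their changes were 0.26 and 0.18, with edgeR adjusted p of 0.694 and 0.62. The cdh-12 call was lost without VT1367 B (edgeR adjusted p 0.0568) or VT3797 C (edgeR adjusted p 0.178), and that of cdh-1 without VT1367 A (edgeR adjusted p 0.073). hmr-1, the classical cadherin of epithelial junctions, changed by -0.17 and -0.26 and passed in neither (edgeR adjusted p 0.671 and 0.0754). The median log2 fold change over the 10 was -0.08 in the U13A contrast and -0.55 in the U18A contrast, against -0.01 and 0.0056 over all genes tested.

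Among all genes 1.55% passed in the U13A contrast in either direction and 8.16% in the U18A contrast. Of the 8 other gly genes, all tested, 0 passed in the U13A contrast by edgeR and 0 by DESeq2, with 1 at an unadjusted p under 0.05. In the U18A contrast 1 passed by either tool. This was gly-6, which fell from 33.9 ± 9.66 CPM in the control to 18.3 ± 2.89 in the mutant (SD, n = 3 each), by 0.88 in log2 units (SE 0.20, edgeR adjusted p 0.0204). The call was lost without VT3797 B (edgeR adjusted p 0.0543) or VT3797 C (edgeR adjusted p 0.208). In the U13A mutant the same gene was higher in every library than in any control, at 13.7 ± 2.07 against 9.59 ± 0.723 CPM (SD, n = 3 each), a difference of 0.50 in log2 units that did not pass (edgeR adjusted p 0.12) except without the count filter (edgeR adjusted p 0.0328). The medians of the list, 0.02 and -0.15, were near those of all genes.

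No other col gene passed in both contrasts in the directions of col-176. Of 115 tested in both, 21 were lower in both mutants past the threshold, where 0.446% of all genes were. By edgeR 0 were higher with U13A and lower with U18A, as by DESeq2, with 1 at an unadjusted p under 0.05 in both. In the U13A contrast 25 of 115 fell and 5 rose, where 0.822% and 0.731% of all tested genes did. In the U18A contrast 53 fell and 11 rose, where 5.88% and 2.29% of all tested genes did. In the U13A contrast, 30 col genes passed with all 6 libraries, 7 without DG3913 A, 4 without VT3878 A and 5 without VT3878 B. Members of this family can have similar stretches, and reads may be shared between them, col-176 included, which was not tested.

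The furrow collagen genes dpy-2, dpy-3, dpy-7, dpy-8, dpy-9 and dpy-10 form the annular furrows of the cuticle. In the U13A mutant 2 of 6 rose, where 0.731% of all tested genes did. These were dpy-9, by 1.24 in log2 units (edgeR adjusted p 0.0168), and dpy-2, by 1.09 (edgeR adjusted p 0.0335). All 6 fell in the U18A mutant, where 5.88% of all tested genes did, with log2 fold changes of -1.503 to -2.08 (edgeR adjusted p 0.0059 to 0.0361). Without VT3797 C each of these 6 missed the threshold (edgeR adjusted p 0.105 to 0.227), as did dpy-8 without VT3797 A or B (edgeR adjusted p 0.131 and 0.0565) and dpy-10 without VT3797 A (edgeR adjusted p 0.0943). The U13A call of dpy-9 was lost without any 1 of the VT3878 libraries (edgeR adjusted p 0.0622 to 0.0791). That of dpy-2 was lost without DG3913 B (edgeR adjusted p 0.0935) or any 1 VT3878 library (edgeR adjusted p 0.078 to 0.205), and with all 12 libraries in 1 fit (edgeR adjusted p 0.0576). The furrow list was chosen with earlier results of these data known and is not independent evidence.

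On the precuticle list, fbn-1, noah-1, noah-2, let-653 and sym-1 rose in the U13A mutant, with log2 fold changes of 1.26 to 2.06. They were 5 of 9 tested, where 0.731% of all tested genes rose. The same genes and lpr-1, let-4 and dex-1 fell in the U18A mutant, 8 of 10 tested, where 5.88% of all tested genes fell. Their changes ran from -0.48 for dex-1 to -2.01 for fbn-1 (edgeR adjusted p 6.78e-05 for sym-1 to 0.0438 for dex-1). This list was known from these data to move in opposite directions and is not independent evidence. Without VT3797 C, 3 of the 8 still passed. Other losses were let-653 without VT3878 B in the U13A contrast (edgeR adjusted p 0.0656) and, in the U18A contrast, lpr-1 without VT1367 A (edgeR adjusted p 0.0767), noah-1 without VT1367 B (edgeR adjusted p 0.0562), let-653 without VT1367 A or B (edgeR adjusted p 0.128 and 0.0509) and dex-1 without any 1 of the 6 libraries (edgeR adjusted p 0.0552 to 0.16). let-653 and dex-1 also missed the threshold for U18A by DESeq2 (DESeq2 adjusted p 0.127 and 0.238), and noah-1 and dex-1 without the count filter (edgeR adjusted p 0.0589 and 0.0612).

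**Figure D3:**
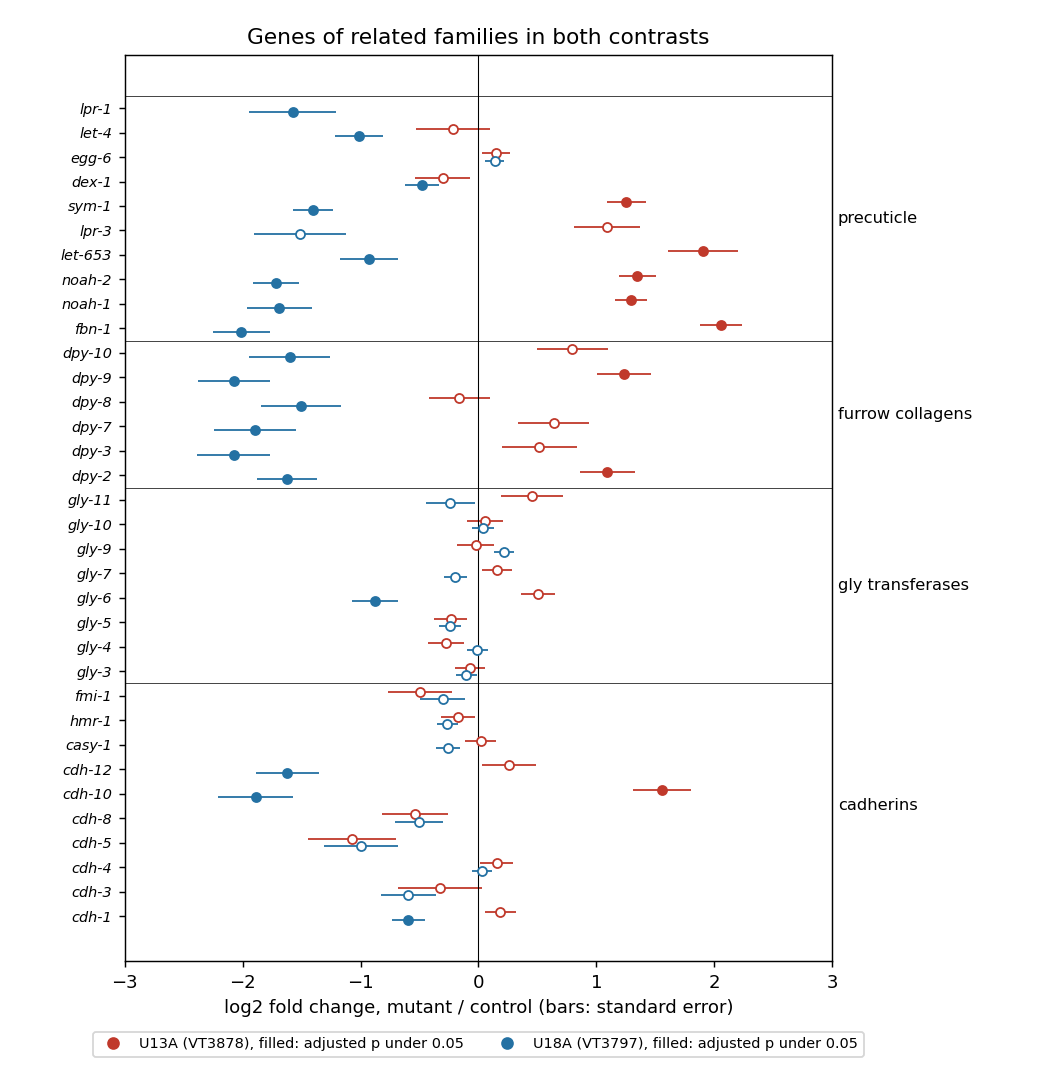
Log2 fold changes with standard errors for the tested genes of 4 lists in the U13A contrast (red) and the U18A contrast (blue); filled points had an adjusted p under 0.05. Of the 10 cadherins, cdh-10 lies at 1.56 and -1.89, and the furrow and precuticle genes lie mainly to the left in blue and to the right in red.

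The genes beside the 7 were also read from these fits. Of the 2 overlapping genes and the 14 nearest genes on either side, 11 were tested in the U13A contrast, and 0 passed by edgeR and by DESeq2, with 2 at an unadjusted p under 0.05. In the U18A contrast 1 of 11 passed, near the 8.16% of all tested genes that did. This was dao-4, which lies 1239 bases from col-176 on the same strand. It had 198, 142 and 211 counts in VT1367 A to C and 80, 63 and 106 in VT3797, and fell by 1.14 in log2 units (SE 0.14, edgeR adjusted p 5.31e-05), and the call held in each fit that left out 1 library. In the U13A table dao-4 had 9, 9 and 5 counts in DG3913 and 4, 5 and 4 in VT3878, too few to be tested.

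The 7 genes also varied among the 3 VT1367 control libraries, and library A lay farthest from the U18A mutant. VT1367 A was the highest of the 3 libraries for 7 of 7 genes, where it was the highest for 37% of all tested genes, and 4 of 7, col-176, cdh-7, F57H12.6 and Y48E1B.8, ran from A over B to C, where 19.4% of tested genes did. The log2 ratio of C to A ran from -0.16 for D1086.3 to -0.97 for cdh-7, with a median of -0.57 over the 7 and -0.00044 over all genes. These ratios use log2 CPM with the prior count of 2. On this scale library C was below A by at least 1.5-fold for cdh-7, col-176 and F57H12.6, 3 of 7, where 5.11% of tested genes were. Y48E1B.8 lay at the limit, 1.49-fold lower on this scale and 1.51-fold lower on plain CPM. The letters carry no order, this variation was known when the genes were proposed, and it sets single libraries against each other.

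The lists differed in this ratio. The median log2 ratio of VT1367 C to A was -1.08 for the furrow list, with 6 of 6 genes at least 1.5-fold lower in C, and -0.56 for the precuticle list, with 5 of 10. It was -0.31 for the cadherins, with 3 of 10 genes lower by that much, and -0.16 for gly, with 1 of 8. For col it was -0.25, with 10 genes lower by that much, but this list is far longer, with 115 genes tested in both contrasts. Of all tested genes, 5.11% were lower in VT1367 C by that much. A high library A was not particular to VT1367 for the furrow genes: in DG3913 their median log2 ratio was -0.83 for C to A, with 4 of 6 genes at least 1.5-fold lower in C, where 12.7% of all tested genes were, and -0.75 for B to A. In VT3797 and VT3878 the C to A medians of the furrow list were -0.35 and 0.39. The summed level of the 4 epidermal markers, of which dpy-7 and rol-6 are cuticle collagen genes, was 184, 142.5 and 132 CPM in VT1367 A to C and 96.7 to 106.5 in VT3797. It overlapped between DG3913 (19.0 to 29.0 CPM) and VT3878 (21.1 to 25.5). The part of epidermal RNA in the U18A differences was not tested. TMM factors of the VT1367 libraries were 0.987 to 0.991 and protein-coding shares 58.2% to 59.2%. Their part in the variation was not tested.

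In DG3913 and VT3797 no library was the highest for more than 3 of the 7 genes. In VT3878 library C was the highest for 5 of 7, and the share of all genes with C highest was not computed. Library A was the highest for 2 of 7 in DG3913, 1 of 7 in VT3878 and 2 of 7 in VT3797, where it was for 30.2%, 35.1% and 33% of all tested genes. Against VT1367 B and C alone, the U18A log2 fold change was -0.80 for gly-8 to -2.14 for col-176 among the 6 genes other than Y48E1B.8, and these 6 still passed.

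**Figure D4:**
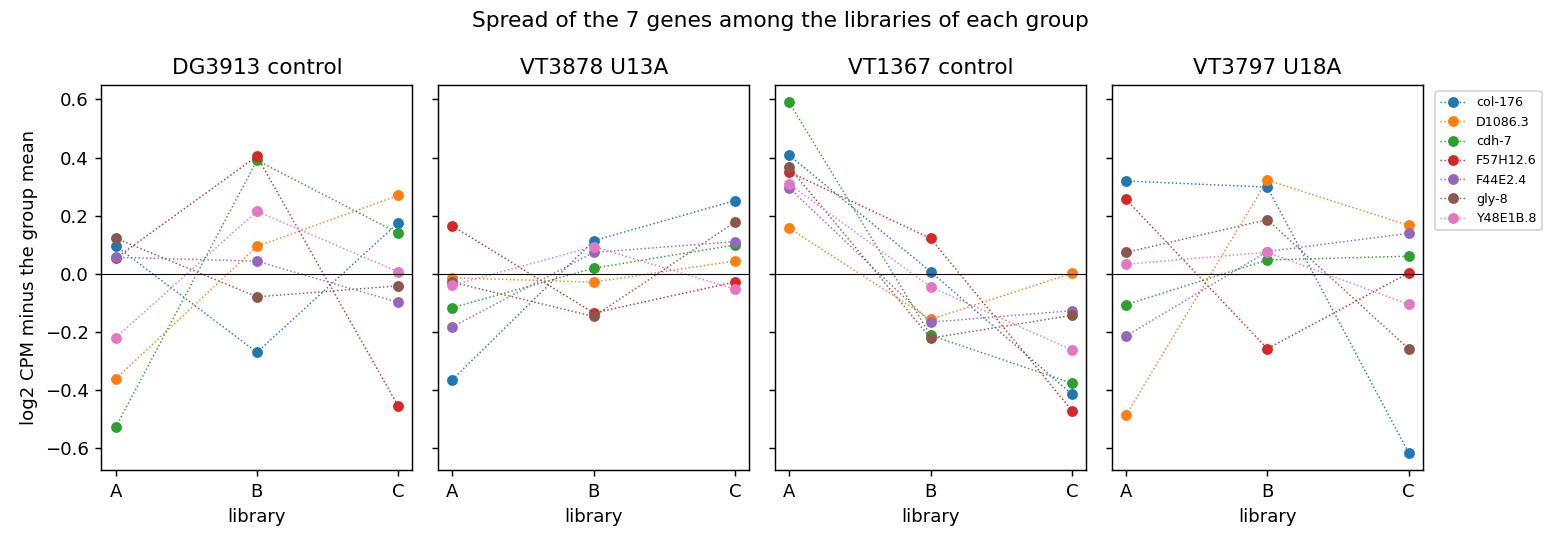
Log2 CPM of each of the 7 genes minus its mean over the 3 libraries, by library, in the 4 strains; dotted lines join the values of a gene and the letters carry no order. In VT1367 all 7 genes lie above 0 in library A, while in the other strains the genes lie on both sides of 0 in most libraries.

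When all 12 libraries were scaled together by TMM, the control strains differed as well, although strain and count table cannot be told apart in this comparison. VT1367 was above DG3913 for 5 genes, by 5.79-fold for cdh-7, 2.56-fold for gly-8, 2.26-fold for F57H12.6, 2.07-fold for F44E2.4 and 1.96-fold for D1086.3, while col-176 and Y48E1B.8 were at 0.318 and 0.340 of their DG3913 level. Groups did not overlap for any of the 7, where 17.4% of 14155 genes were higher in every VT1367 library and 14% lower. Choosing genes that are high relative to DG3913 and low relative to VT1367 favours genes with a higher VT1367 level, so this direction is partly fixed by the choice.

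On this common scale the order of the 4 strains differed between genes. For col-176 it was VT3797 (10.9 ± 3.63 CPM), VT1367 (55.4 ± 15.8), DG3913 (174 ± 27.3) and VT3878 (849.1 ± 176.3) (SD, n = 3 each), with no overlap between neighbours. Y48E1B.8 had the same order, from 1.73 ± 0.128 to 34.1 ± 1.94 CPM (SD, n = 3 each), again without overlap. For cdh-7, DG3913 (1.19 ± 0.420 CPM) and VT3797 (1.68 ± 0.108) overlapped, as did VT1367 (6.89 ± 2.71) and VT3878 (8.11 ± 0.586) (SD, n = 3 each). The first overlap was slight, with the highest DG3913 library at 1.561 CPM and the lowest VT3797 library at 1.557. F44E2.4 formed the same 2 pairs, VT3797 at 15.0 ± 1.85 with DG3913 at 15.3 ± 0.975 and VT3878 at 27.8 ± 2.88 with VT1367 at 31.7 ± 5.98 CPM (SD, n = 3 each).

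For gly-8, DG3913 and VT3797 overlapped at 16.2 ± 1.30 and 20.7 ± 3.31 CPM, and VT1367 was highest at 41.55 ± 9.79, above VT3878 at 30.9 ± 3.52 (SD, n = 3 each). D1086.3 and F57H12.6 had overlapping low levels in VT3797 and DG3913, an intermediate level in VT1367 and the highest in VT3878, at 10.3 ± 0.254 and 5.72 ± 0.654 CPM (SD, n = 3 each). The ranges of VT3797 and DG3913 overlapped for 5 of the 7 genes, col-176 and Y48E1B.8 being the exceptions, and for 65.2% of all genes, so the count of 5 was near that of genes in general.

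**Figure D5:**
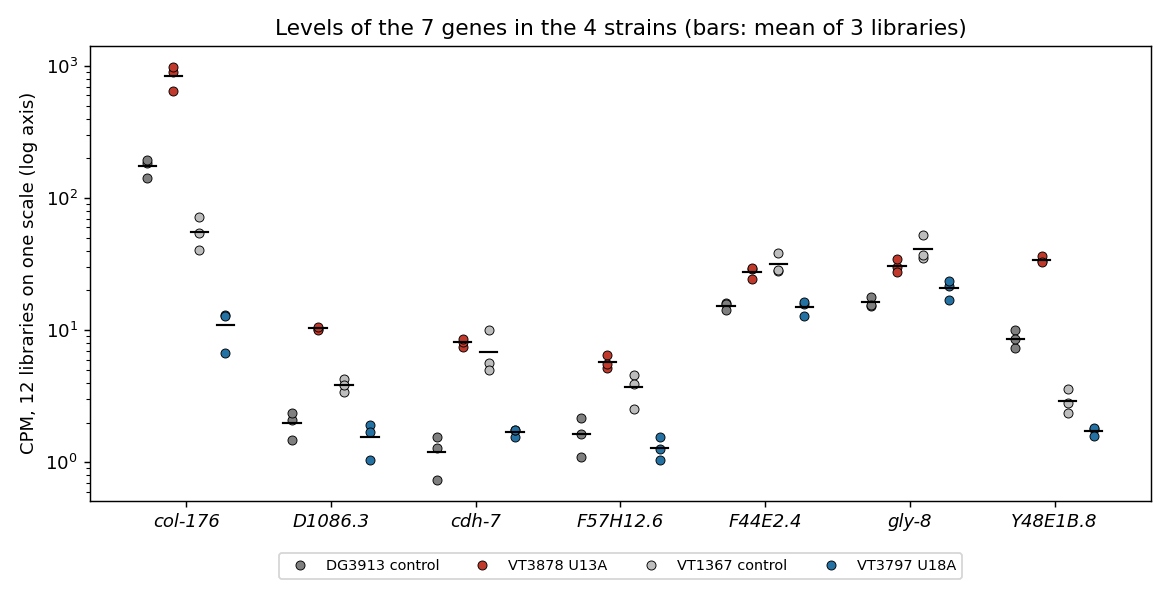
CPM of the 7 genes with all 12 libraries scaled together (log axis); points are libraries, bars are means of 3, and colours are strains. For cdh-7 and F44E2.4 the DG3913 and VT3797 points overlap, as do the VT3878 and VT1367 points, whereas the 4 strains separate for col-176 and Y48E1B.8.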

How the data were processed

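Counts per gene were deposited by the authors as 2 tables of raw read counts, one for each mutant with its control, per the file headers. The submitters' processing notes name cutadapt 1.9, Bowtie2 2.3.4.3 and featureCounts of Subread 1.6.2; the genome build, the annotation and the use of strand are not given in the sources used here. Ribosomal RNA was depleted before library construction, per the labels' protocols. All 12 columns matched 1 sample each by strain and letter. Coordinates and overlaps are from the WBcel235 annotation matched by gene name. No genome or transcript sequence was used, so the planned search of promoters and 3′ regions was not run.

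Each contrast was fitted on its 6 libraries with edgeR 4.0.16 in R 4.3.3 (glmQLFit with robust estimation, glmQLFTest, 2-sided), after filterByExpr (min.count 10, min.total.count 15), with TMM scaling and Benjamini-Hochberg adjustment over 12044 (U13A) and 12689 (U18A) genes at a threshold of 0.05. Each standard error was obtained as |log2 fold change| over the root of the F statistic. log2 CPM used a prior count of 2. DESeq2 1.42.0 was an alternative. The procedure was tested on simulated counts. The members and all gene lists were chosen with earlier results of these data known. The genes named are the members, list genes and nearest neighbours past the threshold, and the 5 most like genes; R08E5.3 and genes named for not passing (gly-6 in the U13A contrast, hmr-1, lpr-3, Y66A7A.7, clec-145) were named after their values were seen. The labels do not say that replicates came from separate cultures, so p-values measure the spread between these libraries, which may be technical. Chi-square per degree of freedom between replicates was 2.811 to 117.1, so none were duplicates. Figures were drawn with matplotlib 3.10.9.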

Additional observations from a re-analysis of the deposited data

Results flagged for a closer look

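The 7 genes moved in opposite directions in the mutants, with every mutant library above every control in the U13A table and below every control in the U18A table; 1.61% of genes did so. They were chosen for this, and the difference between the contrasts was not tested. The U13A minus the U18A log2 fold change was 4.64 for col-176, 3.71 for D1086.3, 4.72 for cdh-7, 3.15 for F57H12.6, 1.895 for F44E2.4, 1.92 for gly-8 and 2.69 for Y48E1B.8. The same separation of libraries was seen for 12 other genes, from the cadherin, gly, furrow and precuticle lists and the 5 most like genes. The difference was not tested for these either. The 191 genes with this separation hold others too, and col genes are not listed here. Among the 12, the U13A minus the U18A log2 fold change was 4.07 for fbn-1, 3.07 for noah-2, 2.99 for noah-1, 2.83 for let-653, 2.66 for sym-1 and 2.61 for lpr-3 of the precuticle list. It was 3.31 for dpy-9 and 2.72 for dpy-2 of the furrow list. It was 3.45 for cdh-10, 1.38 for gly-6, 2.43 for fkb-5 and 3.03 for Y65B4BL.1.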

How the results depend on the processing

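The 7 genes kept their direction in both contrasts under all alternatives run. Counts of all genes past the threshold moved more: for U13A 187 became 543 without the count filter, 393 with the replicate letter as a block, 431 with all 12 libraries in 1 fit and 37 to 352 when 1 library was left out, and for U18A 1036 became 652 with DESeq2 and 548 to 1109 when 1 library was left out. Genes of the 5 lists past the threshold in the U13A contrast went from 38 to 63 without the count filter and to 10 to 47 when 1 library was left out. In the U13A contrast let-4, at -0.21 and not past the threshold, ran from -0.45 to 0.0049 when 1 library was left out, the last without DG3913 A. The cause of these shifts was not tested. Among the 7 genes, 6 or 7 passed for U13A and 5 to 7 for U18A when 1 library was left out. With the replicate block, 7 and 7 passed, Y48E1B.8 included, and 1429 genes for U18A; with all 12 libraries in 1 fit, 7 and 7 also passed. Over all tested genes, same-letter deviations from the group means correlated at 0.000586, -0.033 and 0.0934 for A, B and C in the U13A table. In the U18A table they correlated at 0.0558, -0.00542 and 0.124. These values cannot show whether the letters pair the libraries for a part of the genes, which was not tested. Ratios of VT1367 C to A changed by less than the replicate SD under each scaling, as did ratios of the control strains with RLE size factors, an alternative chosen after seeing the data. Low counts limit cdh-7, D1086.3 and F57H12.6 in DG3913, where the 3 libraries had 6 to 29 counts. They also limit these genes and Y48E1B.8 in VT3797, where the libraries had 12 to 33 counts. No sequence alternative was run.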
